A study of Mus musculus with 8 samples.

Results

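The matrix metalloproteinase (MMP) and TIMP genes measured here are Timp1, Timp2, Timp3, Timp4, Mmp2, Mmp3, Mmp9, Mmp11, Mmp14 and Mmp15, 10 of the 54837 genes in the count table. They were taken by name, as the rows whose Ensembl identifiers carry these symbols in GENCODE mouse release 21, and all 10 were found. RNA was sequenced from basal cells of the mammary gland of untreated C57BL/B6 mice, sorted into 4 G1 and 4 G0 libraries. G1 is the growth phase before DNA synthesis, and G0 cells have left the cycle and rest. Each of 4 runs gave 1 library of each phase, and the sources used here do not give the markers of the sort.

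Matrix metalloproteinases are zinc-dependent enzymes that cut collagens, laminins and other matrix proteins and also shed or release growth factors and receptors. They are made as inactive precursors that must be cleaved, and TIMPs (tissue inhibitors of metalloproteinases) block the active site of the mature enzymes. The pair also cooperates: the membrane-anchored enzyme encoded by Mmp14 uses TIMP2 as a bridge to bind and activate the precursor of the gelatinase MMP2. In the mouse mammary gland these genes are known for their parts in duct branching and in the remodelling after weaning.

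Totals ranged from 6807090 to 13711195 counts in G1 and from 5868728 to 15014104 in G0, so that 1 count was worth 0.0703 to 0.175 CPM (a count scaled to the same library total everywhere). The G0 library of run 4 stood apart, in that 39094 genes had counts, where 20836 to 26614 did elsewhere, and with 8.13% of its counts on Gm10800. The sum of 10 myoepithelial and basal markers ranged from 29997 to 34137 CPM in G1 and from 21408 to 26604 CPM in G0. The sum of 10 luminal markers ranged from 2356 to 3308 CPM in G1 and from 2276.5 to 3831 CPM in G0. Krt14, a basal keratin, averaged 8249 ± 1029 CPM in G1 and 7945 ± 1031 CPM in G0, and Trp63, the transcription factor p63, averaged 111 ± 19.9 CPM in G1 and 111 ± 16.5 CPM in G0 (SD, n = 4 each). CPM values are scaled by TMM factors, which correct for differences in library composition.

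The family split into 5 abundant and 5 scarce genes. Levels between genes were compared per kilobase of annotated exon. Over the 8 libraries the mean was 135 CPM per kilobase for Timp2, 131 for Mmp2, 104 for Timp3, 72.3 for Timp1 and 62.8 for Mmp14. The next gene, Mmp11, stood at 3.32, followed by Mmp3 at 2.40, Timp4 at 1.28, Mmp15 at 0.539 and Mmp9 at 0.215. Neighbours within each block overlapped across libraries: Timp2 ranged from 110 to 162 and Mmp2 from 85.6 to 188. The lowest library of the abundant genes, 37.1 for Timp1, was above the highest of the scarce genes, 9.60 for Mmp3. Per kilobase of the longest transcript instead of all exons, Timp3 and Mmp14 stood at 180 and 116 CPM, which put Timp3 first and Mmp14 above Timp1, so the order among the abundant genes is not fixed by these data.

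**Figure D1:**
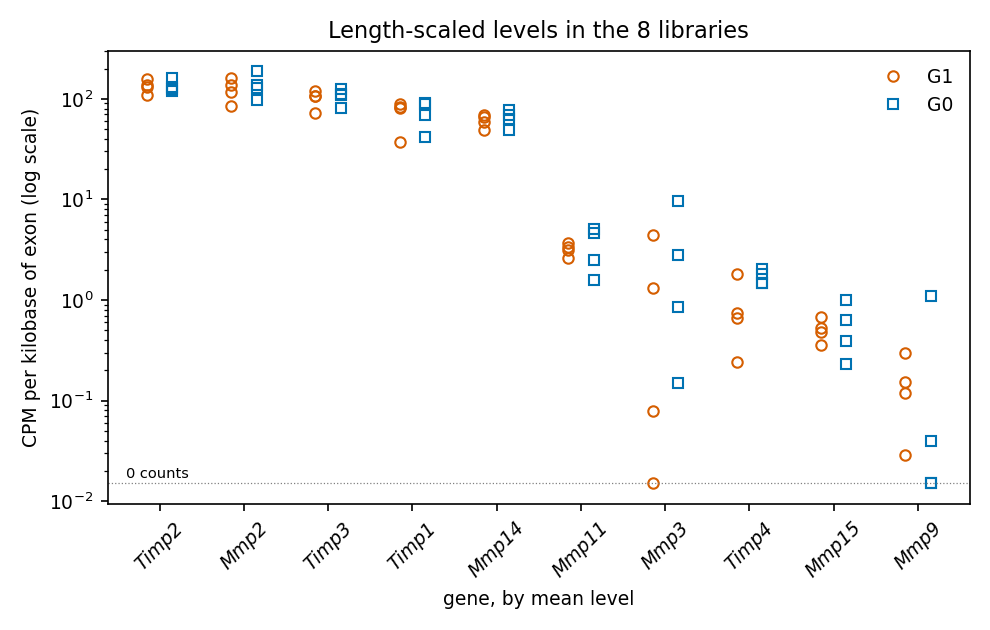
CPM per kilobase of exon (log scale) for each gene in every library, with G1 as circles and G0 as squares; points on the dotted line had 0 counts. Timp2, Mmp2, Timp3, Timp1 and Mmp14 lie above all points of Mmp11, Mmp3, Timp4, Mmp15 and Mmp9.

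The question put to these libraries is which genes of the family differ between growth-phase cells and resting cells. With the phase alone in edgeR's model over all 15192 genes that passed the filter on low counts, 0 of the 9 tested members were higher and 0 lower in G1 at an adjusted p of 0.05. The background was the same, since 0% of all tested genes were called in either direction, and 0 of the 9 members had an unadjusted p under 0.05 against 425 of all genes. Libraries of the same run deviated together, and once each run was entered as a replicate block 1 member, Timp4, was called lower and 0 higher. In that fit 0.764% of all tested genes were called lower and 0.481% higher. DESeq2 with the run in its model called 2 members lower, Timp4 and Mmp3, and 0 higher, against 0.895% of all genes lower and 0.638% higher. The members' median log2 fold change was -0.08 with the block, against 0.01 over all tested genes. Unless stated otherwise, log2 fold changes are G1 over G0 from the edgeR fit with the block, each given ± its standard error, and p is adjusted by Benjamini-Hochberg. With the phase alone every member had an adjusted p of 0.9999.

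**Figure D2:**
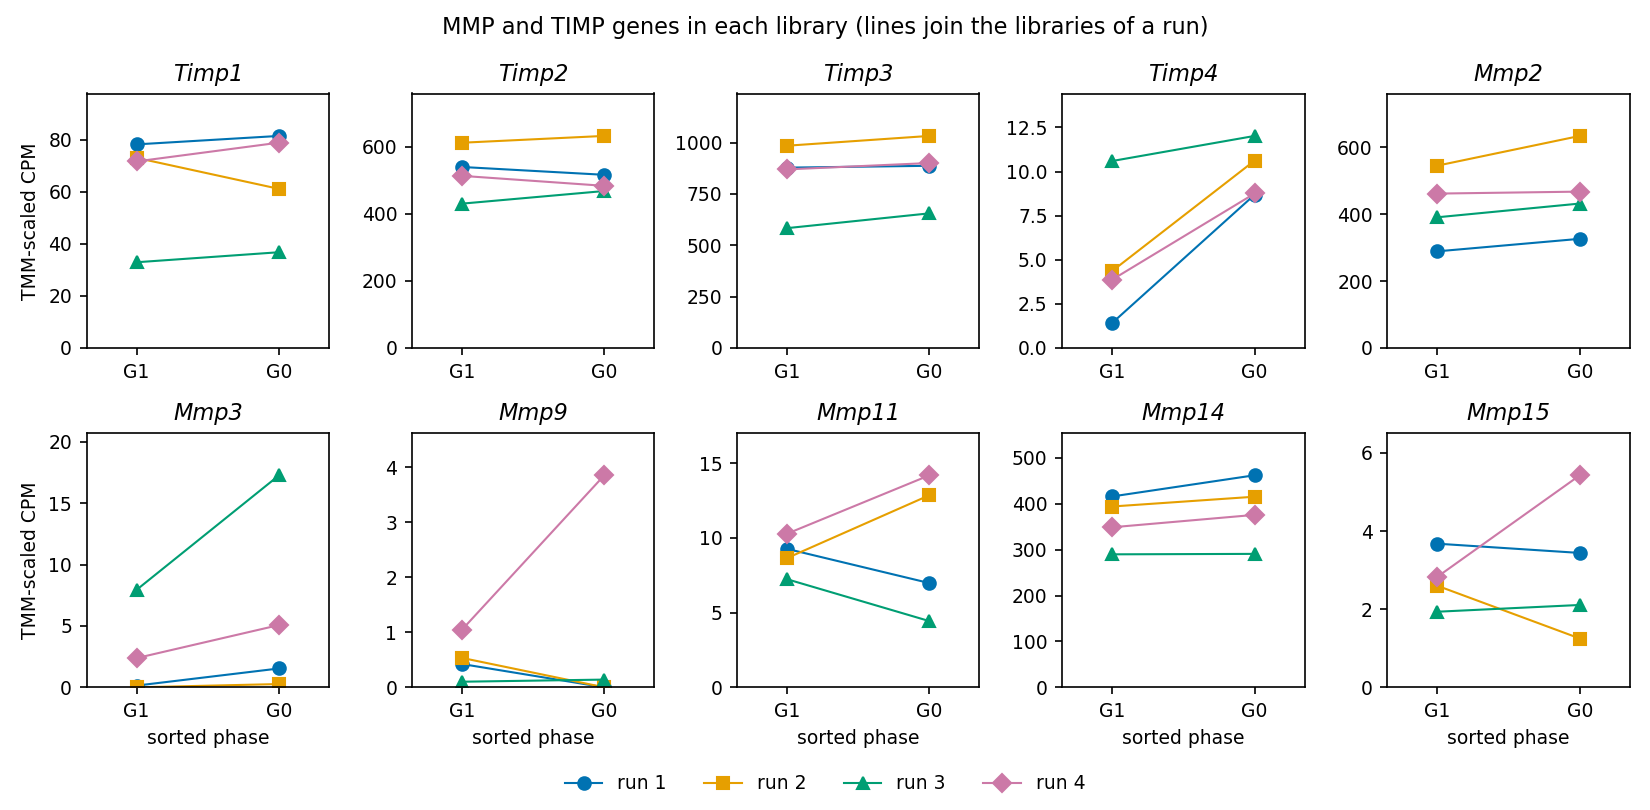
TMM-scaled CPM of the 10 genes in each library, G1 on the left and G0 on the right of every panel, with lines joining the libraries of a run. The Timp4 lines rise steeply toward G0 in runs 1, 2 and 4, the Mmp3 lines rise toward G0 in every run, and the lines of Timp2, Timp3, Mmp2 and Mmp14 are close to level.

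Timp4, the inhibitor with the most restricted tissue pattern of the family, was lower in G1 in all 4 runs. It had 1.41, 4.36, 10.6 and 3.87 CPM in the G1 libraries of runs 1 to 4, against 8.69, 10.6, 12.02 and 8.76 CPM in the G0 libraries. The groups overlapped through the G1 library of run 3, which lay near the G0 values while the other 3 G1 libraries lay below all of them. Behind these values were 20, 57, 104 and 26 counts in G1 and 96, 119, 171 and 50 counts in G0. The mean was 5.06 ± 3.91 CPM in G1 and 10.02 ± 1.60 CPM in G0 (SD, n = 4 each).

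With the block Timp4 fell by 1.23 ± 0.30 in log2 terms (edgeR, adjusted p = 0.0471), a ratio of 0.425 with a 95% interval from 0.275 to 0.658. With the phase alone it was -1.001 ± 0.48 (adjusted p = 0.9999). The call was lost without run 1 (-0.84, adjusted p = 0.144), run 2 (-1.22, adjusted p = 0.187) or run 4 (-1.25, adjusted p = 0.224), and held without run 3 (-1.68, adjusted p = 0.000114). In limma-voom with the block the adjusted p was 0.0916. Timp4 lies on the minus strand of chromosome 6 from 115241892 to 115252205 (GRCm38), inside the gene Syn2 on the opposite strand, with which it shares 1.53% of its exon bases. Syn2 had 55, 54, 29 and 36 counts in the G1 libraries of runs 1 to 4, and 86, 53, 98 and 52 in G0. The strand setting used in counting is not given, so reads where the genes overlap cannot be assigned to either with certainty.

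Mmp3, the stromelysin that cuts a broad range of matrix proteins and activates other MMP precursors, was scarce and stood at fewer CPM in G1 in every run. It had 0.141, 0, 7.95 and 2.38 CPM in the G1 libraries of runs 1 to 4, against 1.54, 0.268, 17.3 and 5.08 CPM in the G0 libraries. Both libraries of run 3 were the highest of their phase, and the groups overlapped. The counts were 2, 0, 78 and 16 in G1 and 17, 3, 246 and 29 in G0, so in run 2 both libraries were at or under 3 counts and no ratio is given for it. Within runs 3 and 4 the log2 ratios were -1.10 and -1.04.

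The log2 fold change of Mmp3 was -1.56 ± 0.41 (adjusted p = 0.0585, edgeR with the run block), with a 95% interval from -2.40 to -0.72. DESeq2 with the run in its model gave -1.67 ± 0.48 (adjusted p = 0.0368), and edgeR with the block and RLE scaling gave an adjusted p of 0.0442. With the block and 1 run left out the edgeR adjusted p ranged from 0.0652 to 0.179, the highest without run 4. With the phase alone it was -1.25 ± 1.47 (adjusted p = 0.9999) and turned to 0.22 without the G0 library of run 3. Mmp3 lies on the plus strand of chromosome 9 from 7445822 to 7455975.

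**Figure D3:**
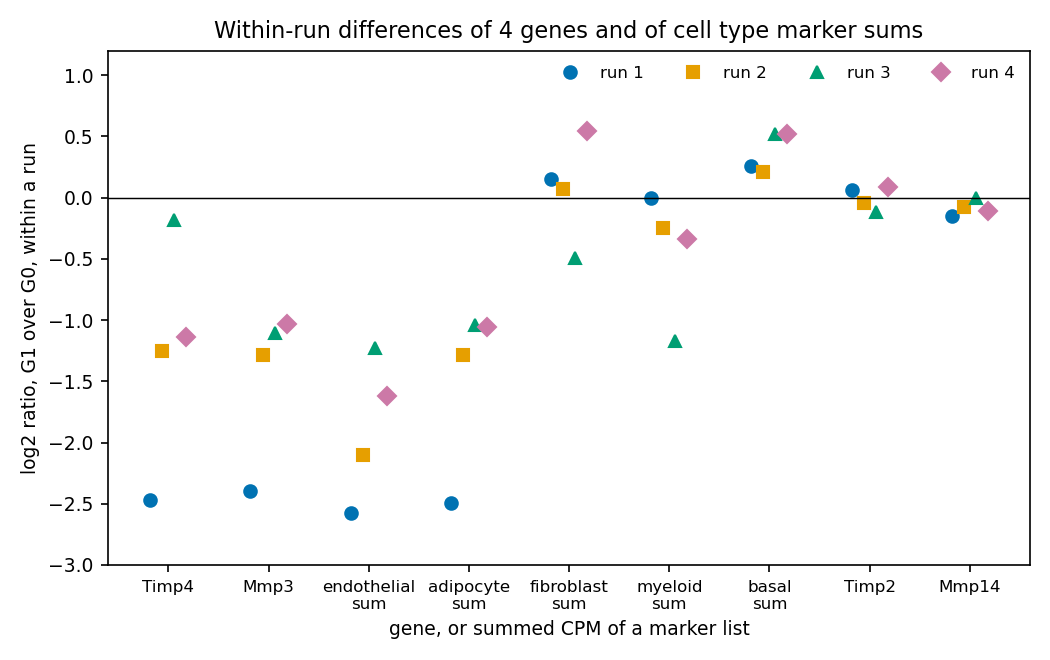
Log2 ratio of G1 over G0 within each run (vertical axis) for Timp4, Mmp3, Timp2 and Mmp14 and for the summed CPM of 5 marker lists. The endothelial and adipocyte sums, like Timp4 and Mmp3, lie below 0 in all 4 runs. The myeloid sum also lies below 0 in all 4 runs, from -0.0038 in run 1 to -1.17 in run 3. Timp2 and Mmp14 lie near 0. The Mmp3 points of runs 1 and 2 rest on 2 and 0 counts in G1 and on the prior count of 2.

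Endothelial markers and those adipocyte markers that could be tested were lower in G1 together with these genes, while fibroblast markers were mixed. The myeloid sum was also lower in G1 in each run, with ratios of 0.997, 0.844, 0.444 and 0.792 in runs 1 to 4. The sum of 10 endothelial markers ranged from 26.5 to 115 CPM in G1 and from 158 to 277 CPM in G0, and 10 of the 10 were called lower with the block, or 6 without run 2 and 6 without run 4. The sum of 7 adipocyte markers ranged from 33.1 to 214 CPM in G1 and from 159 to 441 CPM in G0. Most of this sum was 1 gene, Fabp4, in every library. It gave 26.0 of 33.1 CPM in the G1 library of run 1 and 393 of 441 CPM in the G0 library of run 3. Of the 4 adipocyte markers that could be tested 1 was called lower, Lpl, a lipase, or 2 in DESeq2 with the run in its model. The others, Adipoq, Plin1 and Cidec, did not pass the filter on low counts, so the adipocyte values rest on the 4 tested genes. The fibroblast sum ranged from 288 to 690 CPM in G1 and from 259 to 971 CPM in G0, and was highest in run 3 in both phases. It was higher in G1 in runs 1, 2 and 4, with ratios of 1.11, 1.05 and 1.46, and lower in run 3, at 0.711. The largest part of this sum in every library was decorin, Dcn. It had 165, 261, 287 and 305 CPM in the G1 libraries of runs 1 to 4, against 115, 165, 298 and 130 CPM in G0. The direction of the sum in each run was thus that of Dcn. With the block the collagen genes Col1a1 and Col1a2, Lum and Pi16 made up the 4 of 10 fibroblast markers called lower, 0 were called higher, and 7 of the 10 had negative fold changes. Dcn was at 0.58 ± 0.16 (edgeR with the block, adjusted p = 0.0973) and was called higher in DESeq2 with the run in its model (adjusted p = 0.0283). None of the markers in these lists was at 0 in every library. In RNA from a sorted population, fewer cells of a type and less RNA per cell cannot be told apart, and the part of these cells in the Timp4 and Mmp3 values was not tested.

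The genes with the pattern most like Timp4 over the 8 libraries, by Pearson's correlation of log2 CPM over all tested genes, were A030001D20Rik at 0.975, Gpihbp1, the capillary anchor of lipoprotein lipase, at 0.969 and Gdf11, a TGF-beta family ligand, at 0.958. For Mmp3 they were the RNA-binding protein gene Mex3a at 0.982, the Hippo pathway scaffold gene Sav1 at 0.973 and the ubiquitin ligase gene Peli2 at 0.960. The libraries come as 4 pairs that share a run, so these values describe likeness in this set of libraries. Gpihbp1 had 2.26, 7.04, 23.8 and 11.3 CPM in the G1 libraries of runs 1 to 4, against 27.1, 40.4, 52.9 and 31.7 CPM in the G0 libraries, with the G1 library of run 3 again the highest of its phase. Mex3a was highest in run 3 in both phases, at 37.5 CPM in G1 and 42.0 CPM in G0, as was Mmp3.

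The sequences upstream of the scarce pair that had fewer CPM in G1 in every run, and of the abundant Mmp14, are shown to set the starts of genes with unlike levels side by side. They are the 250 bases before the RefSeq start on GRCm38.p6, from the RefSeq table of promoters, which held 8 of the 10 members; Mmp2 and Mmp9 were not among them. Capitals mark matches on either strand to TGAGTCA, the AP-1 motif, to TATAAA, the TATA motif, and to GGGCGG, the GC box; no match of one motif overlapped another motif. Mmp3 is chr9:7445572-7445821 on the plus strand, Timp4 chr6:115252206-115252455 on the minus strand and Mmp14 chr14:54431348-54431597 on the plus strand.
Mmp3: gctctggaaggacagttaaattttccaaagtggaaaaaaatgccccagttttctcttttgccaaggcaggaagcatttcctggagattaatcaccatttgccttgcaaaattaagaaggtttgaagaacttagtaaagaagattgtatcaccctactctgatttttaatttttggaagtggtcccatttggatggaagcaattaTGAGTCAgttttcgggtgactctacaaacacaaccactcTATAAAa
Timp4: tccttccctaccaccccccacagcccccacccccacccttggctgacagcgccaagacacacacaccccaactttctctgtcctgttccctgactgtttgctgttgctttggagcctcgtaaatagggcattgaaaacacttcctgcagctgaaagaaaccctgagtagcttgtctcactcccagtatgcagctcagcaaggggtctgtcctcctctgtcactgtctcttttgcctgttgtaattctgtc
Mmp14: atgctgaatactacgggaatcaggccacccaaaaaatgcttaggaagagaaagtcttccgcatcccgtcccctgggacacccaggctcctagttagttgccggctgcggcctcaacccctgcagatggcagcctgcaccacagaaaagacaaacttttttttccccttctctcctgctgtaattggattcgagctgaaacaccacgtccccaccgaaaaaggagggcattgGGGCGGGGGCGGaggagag

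Of the 8 members in that table, Mmp3 alone held the AP-1 motif, 46 bases before the start, and alone held the TATA motif, 7 bases before it. Over all 32851 windows of 250 bases, 4.46% held the AP-1 motif, 12.4% the TATA motif and 32.7% the GC box. Timp1, Timp2, Timp3, Mmp11, Mmp14 and Mmp15 each held at least 1 GC box, with 2 in Mmp14 and Mmp11, while Mmp3 and Timp4 held 0. The share of G and C bases was 37.6% for Mmp3, 53.6% for Timp4 and 55.2% for Mmp14, against a median of 52.4% over all windows. A match describes these letters only.

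The abundant inhibitors were measured at nearly the same level in both phases. Timp2, which inhibits most MMPs and takes part in the activation of MMP2, had 540, 612, 430 and 513 CPM in the G1 libraries of runs 1 to 4, against 516, 632, 468 and 483 CPM in the G0 libraries. Its log2 fold change was -0.01 ± 0.10 (adjusted p = 0.980, edgeR with the run block), and the 95% interval of the ratio ran from 0.856 to 1.15. Run 2 was highest and run 3 lowest in both phases, and the phases overlapped. Timp2 lies on the minus strand of chromosome 11 from 118301069 to 118355740.

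Timp3, the inhibitor that stays bound to the matrix and also blocks the shedding enzyme ADAM17, had 878, 985, 583 and 870 CPM in the G1 libraries, against 887, 1033, 656 and 901 CPM in the G0 libraries of the same runs. It was lower in G1 in all 4 runs by a small amount, with a log2 fold change of -0.08 ± 0.10 (edgeR with the run block, adjusted p = 0.806) and a 95% interval of the ratio from 0.819 to 1.09. Timp3 lies on the plus strand of chromosome 10 from 86300372 to 86349506, inside the synapsin gene Syn3 on the opposite strand, with which it shares 21.3% of its exon bases. Syn3 carried 27.0% to 45.4% as many counts as Timp3 across the libraries and had a log2 fold change of 0.04 ± 0.11. No source used here gives the strand setting used in counting, so reads of the shared bases cannot be assigned to either gene with certainty.

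Timp1, the inhibitor most often induced by growth factors and cytokines, had 78.1, 73.0, 32.9 and 71.6 CPM in the G1 libraries of runs 1 to 4, against 81.4, 61.1, 36.8 and 78.8 CPM in the G0 libraries. Run 3 was the lowest in both phases, and the phases overlapped. The log2 fold change was -0.03 ± 0.13 (adjusted p = 0.959, edgeR with the run block), with a 95% interval of the ratio from 0.819 to 1.17. Timp1, on chromosome X from 20870166 to 20874735, also lies inside a synapsin gene on the opposite strand, Syn1, but the exons of the pair share 0 bases.

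The gelatinase Mmp2, which cuts denatured collagen and collagen IV, had 289, 544, 390 and 461 CPM in the G1 libraries of runs 1 to 4, against 326, 633, 431 and 467 CPM in the G0 libraries. The order of the runs was the same in both phases, with run 1 lowest and run 2 highest, and G1 was lower in each run. The log2 fold change was -0.15 ± 0.10 (adjusted p = 0.618, edgeR with the run block), with a 95% interval of the ratio from 0.779 to 1.05. The SD between runs was 108 CPM in G1 and 127 CPM in G0, wider than the difference of the means, 421 CPM in G1 and 464 CPM in G0. This SD includes the differences between runs, which the block takes out of the comparison. Mmp2 lies on the plus strand of chromosome 8 from 92827291 to 92853420.

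The other gelatinase, Mmp9, known from neutrophils, macrophages and invading tumours, did not pass the filter on low counts and was not tested. It had 6, 7, 1 and 7 counts in the G1 libraries of runs 1 to 4 and 0, 0, 2 and 22 counts in the G0 libraries. The G0 library of run 4, the one with counts on the most genes, stood at 3.85 CPM, against at most 0.141 CPM in the other 3 G0 libraries. Within runs 1 and 2 Mmp9 had counts in G1 alone, and in run 4 more in G0, and 4 of the 8 libraries were at or under 3 counts. The sum of 8 myeloid markers ranged from 39.2 to 69.4 CPM in G1 and from 39.6 to 103 CPM in G0, with 0 of the 4 testable ones called, and its part in the Mmp9 values was not tested. Mmp9 lies on the plus strand of chromosome 2 from 164940780 to 164955850.

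The membrane-type enzyme Mmp14, the main activator of MMP2 and itself a collagenase, had 416, 394, 290 and 349 CPM in the G1 libraries of runs 1 to 4, against 462, 415, 291 and 376 CPM in the G0 libraries. Run 1 was highest and run 3 lowest in both phases. Mmp14 lies on the plus strand of chromosome 14 from 54431612 to 54445364. The log2 fold change was -0.09 ± 0.10 (adjusted p = 0.793, edgeR with the run block), with a 95% interval of the ratio from 0.809 to 1.09. Its relative Mmp15, another membrane-type enzyme, was scarce, at 3.68, 2.60, 1.94 and 2.83 CPM in G1 and 3.44, 1.25, 2.11 and 5.43 CPM in G0. Mmp15 was higher in G1 in 2 runs and lower in 2, with a log2 fold change of 0.01 ± 0.37 (edgeR, adjusted p = 0.997). The 95% interval of the ratio ran from 0.593 to 1.70, so these libraries cannot tell a change within that range from none. Mmp15 lies on the plus strand of chromosome 8 from 95352268 to 95375080.

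Mmp11, the stromelysin that furin-type proteases activate inside the cell, averaged 8.85 ± 1.27 CPM in G1 and 9.61 ± 4.66 CPM in G0 (SD, n = 4 each). The G1 libraries, from 7.23 to 10.3 CPM, lay within the range of the G0 libraries, from 4.43 to 14.2 CPM. Its log2 fold change was -0.002 ± 0.26 (adjusted p = 0.999, edgeR with the run block), with a 95% interval of the ratio from 0.688 to 1.45. Mmp11, on the minus strand of chromosome 10 from 75923222 to 75936496, shares 5.58% of its exon bases with Chchd10 on the opposite strand.

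**Figure D4:**
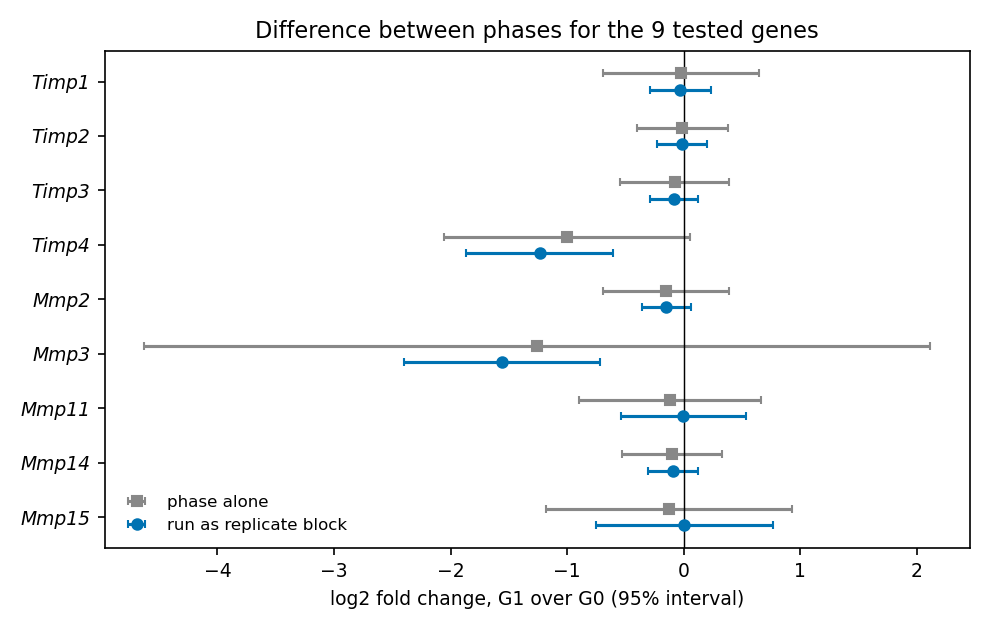
Log2 fold change of G1 over G0 for the 9 tested genes with 95% intervals, from the edgeR model with the phase alone (squares) and with the replicate block (circles). With the block the intervals of Timp4 and Mmp3 lie below 0 and those of the other 7 genes include 0.

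The RNA levels of Timp2, Mmp2 and Mmp14, whose products form the activation complex, stood in similar proportions in both phases. Protein was not measured. Per kilobase of exon, Timp2 stood at 2.22 ± 0.17 times Mmp14 in G1 and 2.12 ± 0.34 times in G0 (SD, n = 4 each). Mmp2 stood at 2.10 ± 0.58 times Mmp14 in G1 and 2.19 ± 0.67 times in G0, with run 1 lowest in both phases at 1.23 in G1 and 1.25 in G0. Per kilobase of the longest transcript these ratios were lower, at 1.27 ± 0.095 in G1 and 1.21 ± 0.20 in G0 for Timp2 over Mmp14, and at 1.25 ± 0.35 in G1 and 1.30 ± 0.40 in G0 for Mmp2 over Mmp14. Per kilobase of exon, the summed level of the 4 TIMPs over that of the 6 MMP genes was 2.10, 1.56, 1.29 and 1.59 in the G1 libraries of runs 1 to 4, against 1.88, 1.37, 1.30 and 1.54 in the G0 libraries. The differences between the phase means were smaller than the spread between runs. Within runs, the summed ratio was higher in G1 in runs 1, 2 and 4 and about equal in run 3. Timp2 over Mmp2, per kilobase of exon, was higher in G1 in each run. It was 1.62, 0.972, 0.954 and 0.963 in the G1 libraries of runs 1 to 4, against 1.37, 0.864, 0.939 and 0.896 in G0. These ratios were not tested.

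Of 17 other MMP genes, 4 passed the filter on low counts, Mmp17, Mmp19, Mmp23 and Mmp24, and 0 were called in either direction with or without the block. Mmp23, a membrane-anchored enzyme, was the highest of them at 23.9 ± 4.25 CPM in G1 and 23.8 ± 3.69 CPM in G0 (SD, n = 4 each). The other 13 had at most 22 counts in any library, and Mmp10 had 0 counts in all 8. Of 7 tested ADAM genes, relatives that shed membrane proteins, 0 were called, and their median was -0.08. Of 16 tested ADAMTS genes, secreted relatives that cut proteoglycans among other substrates, 1 was called lower with the block and 0 higher, with a median of -0.22, and DESeq2 with the run in its model called 1 lower and 1 higher.

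The gene called lower was Adamts1, which cuts the proteoglycans aggrecan and versican. It had 595, 698, 686 and 912 CPM in the G1 libraries of runs 1 to 4, against 678, 806, 1098 and 1457 CPM in the G0 libraries, lower in G1 in each run with overlapping groups. In log2 terms Adamts1 fell by 0.44 ± 0.11 with the run block (edgeR, adjusted p = 0.0451). Without run 3 or 4 the adjusted p was 0.120 or 0.275. The gene called higher in DESeq2 (adjusted p = 0.0449) was Adamts18, which averaged 40.3 ± 15.6 CPM in G1 and 27.3 ± 11.9 CPM in G0 (SD, n = 4 each). It was higher in G1 in all 4 runs, with a log2 value of 0.57 ± 0.15 in edgeR with the block (adjusted p = 0.0562).

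Among 17 tested regulators of MMPs, which include activating proteases, clearance receptors and membrane inhibitors, 1 was called higher with the block and 0 lower, and the median was -0.02. Pcsk6, a proprotein convertase of the furin family that cleaves the precursors of secreted proteins, had 2.90, 6.73, 8.25 and 16.8 CPM in the G1 libraries of runs 1 to 4, against 1.63, 1.70, 2.67 and 2.63 CPM in the G0 libraries. The groups did not overlap. In log2 terms Pcsk6 rose by 1.78 ± 0.32 with the run block (edgeR, adjusted p = 0.00224, and 0.0950 without run 4). With the phase alone its adjusted p was 0.886 in edgeR and 0.0397 in DESeq2. Furin itself averaged 239 ± 53.0 CPM in G1 and 280 ± 66.0 CPM in G0 (SD, n = 4 each) with a difference of -0.23 ± 0.12 in log2 terms (adjusted p = 0.463). Reck, a membrane-anchored MMP inhibitor, had one of 0.10 ± 0.14 (adjusted p = 0.838).

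The plasminogen system, whose product plasmin can activate several MMP precursors, had 0 of 9 tested genes called and a median of 0.03. Plaur, the urokinase receptor, averaged 453 ± 83.0 CPM in G1 and 544 ± 107 CPM in G0 (SD, n = 4 each) and was lower in G1 in each run, with a log2 fold change of -0.27 ± 0.10 (edgeR with the run block, adjusted p = 0.253). Plat, the tissue plasminogen activator, had one of -0.21 ± 0.12 (adjusted p = 0.502). Beside these lists, the contractile genes Actg2, Cnn1, Acta2 and Tagln were the 4 of 10 myoepithelial and basal markers called higher in G1 with the block. Of 5 tested pericyte and 9 tested luminal markers, 0 were called.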

How the data were processed

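The submitters' processing notes name Trimmomatic 0.35, STAR 2.5.2a and the build mm10. The authors deposited raw read counts per gene, whole numbers with no normalization. No source used here gives the counting program or its strand setting. Of 54837 gene identifiers, 54808 matched a GENCODE mouse release 21 symbol, and 0 sample columns were left unused. The labels describe stranded libraries from polyadenylated RNA.

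The members and gene lists were chosen with earlier results of these data known. Genes were tested by quasi-likelihood in edgeR 4.0.16 under R 4.3.3 (robust, two-sided) on TMM-scaled counts of the 15192 genes kept by filterByExpr, adjusted by Benjamini-Hochberg at 0.05 over all of them. Each edgeR standard error is the size of the log2 fold change divided by the root of its F statistic. A prior count of 2 entered log2 CPM and the ratios within runs. The filter left out Mmp9, and a value of 3 counts or fewer was taken as the floor, for counting error only. The script was tested on simulated data.

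The run numbers come from the titles. Deviations from the phase mean correlated between the libraries of runs 1 to 4 at 0.668, 0.470, 0.638 and 0.437, so the runs were taken as pairs. Whether the runs came from separate animals is not said in the labels; the p-values thus reflect spread among these libraries, possibly technical spread. The biological coefficient of variation was 34.9% with the phase alone and 16.9% with the block. No 2 libraries were copies, with chi-square per degree of freedom of at least 21.7 within a phase.

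All members were named, and of the other lists the 3 genes with the smallest p and any gene called with or without the block could be. Krt14, Trp63, Mmp23, Adamts18, Furin, Reck, Plat, Adipoq, Plin1 and Cidec lie outside that rule and were chosen with their values known. Likeness was taken for the 2 members with the smallest p in the model without the block. Alternatives were RLE scaling, other count filters, DESeq2 1.42.0, limma-voom (limma 3.58.1), the replicate block, and libraries or runs left out.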

Additional observations from a re-analysis of the deposited data

Results flagged for a closer look

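Among the 22 groups of 4 values examined, 1 held a library far from the others by Dixon's test, which flags about 1 in 20 groups by chance. Timp1 on the log2 CPM scale in G1 had a gap of 0.899 of the group's range between run 3 and its nearest neighbour, past the 95% critical value for 4 samples. Run 3 stood at 32.9 CPM in G1, against 71.6 to 78.1 CPM in the other 3 G1 libraries. In G0 run 3 was also the lowest, at 36.8 CPM against 61.1 to 81.4 CPM.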

How the results depend on the processing

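With the phase alone, the counts of all genes called higher and lower were 0 and 0, as they were under RLE scaling, the stricter filter, limma-voom and with any 1 library left out. They were 14 and 73 with no low-count filter (42494 genes, whose median log2 fold change was -0.82), and 10 and 24 in DESeq2. With the replicate block they were 73 and 116, with the block and RLE 74 and 123, with the block in DESeq2 97 and 136, with the block in limma-voom 63 and 134, and with the block and the stricter filter 53 and 92. With the block and 1 run left out they were 99 and 175 without run 1, 63 and 90 without run 2, 73 and 144 without run 3, and 21 and 76 without run 4. Members called lower were 1 with the block, 2 with the block and RLE, 2 with the block in DESeq2, 1 with the block and the stricter filter, 0 with the block in limma-voom and 0 to 1 with the block and 1 run left out. No member was called higher in any of these settings.

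The direction of Timp4 was the same in the 22 alternatives (-1.68 to -0.68), with a call in 5 of 9 with the block and 0 of 14 without it. Mmp3 ranged from -3.10 to 0.22 with 1 library left out, with a call in 2 of 8 settings with the block. Members with fold changes near 0 changed sign, and none of them was called in either direction. With no low-count filter Timp1 had 0.029 and Timp2 0.028. In limma-voom Mmp11 had 0.11 and Mmp15 0.18. With the block Mmp15 had 0.0067, or 0.0050 with RLE, 0.0067 in DESeq2 and 0.0072 in limma-voom, and Mmp11 in DESeq2 had 0.0012. With 1 library left out the ranges were -0.21 to 0.20 for Timp1, -0.088 to 0.096 for Timp2, -0.19 to 0.065 for Timp3, -0.29 to 0.042 for Mmp2, -0.36 to 0.13 for Mmp11, -0.21 to 0.0048 for Mmp14 and -0.38 to 0.29 for Mmp15. With the block and 1 run left out they were -0.12 to 0.0081 for Timp1 (0.0058 without run 4), -0.046 to 0.020 for Timp2 (0.0040 without run 2), -0.23 to 0.21 for Mmp11 (0.15 without run 4) and -0.31 to 0.31 for Mmp15 (0.043 without run 3). The cause of these shifts was not tested. Mmp3, Mmp9 and Mmp15 had few counts and also spread widely between libraries, and which of these limits their precision was not tested.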

Other observations

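Other genes that act on the matrix had large fold changes without passing the test in edgeR with the run block. Calls in their lists changed with the setting. With the block and run 1 left out, 2 MMP regulators were called higher and 2 lower, and 2 ADAMTS genes lower. Over all 15525 genes of that fit, 99 were called higher and 175 lower. Spock3, a proteoglycan that inhibits membrane-type MMPs, averaged 5.32 ± 2.91 CPM in G1 and 1.65 ± 1.14 CPM in G0 (SD, n = 4 each), with a log2 fold change of 1.79 ± 0.63 (adjusted p = 0.259, edgeR with the run block). It was lower in G1 in 1 of 4 runs, and its G0 library of run 3 held 1 count, or 0.0703 CPM. Pcolce2, an enhancer of procollagen processing, averaged 1.10 ± 0.96 CPM in G1 and 3.88 ± 3.91 CPM in G0, at -1.69 ± 0.45 in log2 terms (edgeR, adjusted p = 0.0620). It was lower in G1 in 4 of 4 runs, and its G1 library of run 1, at 0.212 CPM, was at the floor of 3 counts. The ADAMTS protease gene Adamts12 averaged 1.27 ± 0.75 CPM in G1 and 4.33 ± 3.70 CPM in G0, with a log2 fold change of -1.45 ± 0.48 (edgeR, adjusted p = 0.171). It was lower in G1 in 3 of 4 runs.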
